A study of Danio rerio with 6 samples.

Results

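The genes described here encode the machinery that divides and joins mitochondria: dnm1l, fis1, mff, mief1, mief2, mtfp1, mfn1b, mfn2, opa1 and oma1. They were taken from the deposited table by gene name, ignoring case. The 10 genes were found in 11 of the 21837 rows used, because mff has a row in lower case and another, MFF, in capitals. RNA was measured at 28 hours post fertilization in GFP+ cells from zebrafish embryos of the line Tg(fli1a:eGFP), in 3 libraries from embryos with a control morpholino (control MO) and 3 from embryos with a clec16a MO. The cells were not cultured, and all 6 libraries carry the same transgene, in which fli1a regulatory sequence, active in endothelium and in some blood and pharyngeal arch cells, drives the green fluorescent protein. Morpholinos are synthetic antisense molecules used against either the splicing or the translation of an RNA; the labels say neither which of these the clec16a MO does, nor how the cells were gated, nor whether embryos were pooled. Groups follow the genotype label, since the titles (Exp2D for control MO, NegaP for clec16a MO) name no morpholino. The series asks how clec16a, which encodes an endolysosomal protein, acts in hematopoietic stem and progenitor cells, and its title names mitophagy.

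Mitochondria form a network whose shape is set by the balance of division and joining. For division, the dynamin-related GTPase Dnm1l (also called Drp1) is recruited from the cytosol by adaptor proteins of the outer membrane, Mff, Mief1, Mief2 and Fis1, and constricts the organelle; Mtfp1 is an inner membrane protein that acts in division in mammalian cells. For joining, the mitofusins Mfn1 and Mfn2 tether and fuse the outer membranes, and Opa1 fuses the inner membranes until the protease Oma1 cleaves it under stress. Division yields the small fragments that mitophagy can take up. In mouse blood stem cells Mfn2 is known to be needed for the cells with lymphoid potential, and red blood cells clear their mitochondria as they mature.

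Of the 11 rows, 4 fell in the clec16a MO libraries, 0 rose and 7 were not called (limma, on the deposited scale; 0 were higher at an unadjusted p below 0.05 as well). With the libraries rescaled to a common median or to common quantiles, 6 and 5 of the other rows were called higher. Of all genes tested, 39.7% and 38% were called higher under these scalings. The rows that fell were the outer membrane fusion gene mfn1b, the division GTPase gene dnm1l, the inner membrane division gene MTFP1 and the MFF row. The other mitofusin gene, mfn2, the inner membrane fusion gene opa1, its protease gene oma1, and the adaptor genes fis1, mff, mief1 and mief2 were not called. Values were tested as log2(FPKM + 1) with limma, with Benjamini-Hochberg adjustment over the 12153 genes that had a mean of at least 1 FPKM, and were called at an adjusted p below 0.05. All 11 rows passed that filter. MTFP1 and MFF passed it only through the control MO libraries, with clec16a MO means of 0 and 0.985 FPKM, and rows of that kind can only come out lower. Calls were the rule in these libraries: 81.3% of the genes tested were called, 26.7% higher and 54.6% lower, against 36.4% of the 11 rows. The share of genes not called was 18.7% of those tested and 63.6% of the 11 rows, and no test of that difference was made. This gap was not seen with median centring or quantile normalization. It remained when globin, mitochondrial and ribosomal genes were left out and the libraries set to a common total. That run called 4 of the 11 rows, 0 of them higher, and 9789 of all genes. With median centring 81.8% of the 11 rows and 77.8% of all genes tested were called. With quantile normalization these shares were 72.7% and 77.8%. FPKM are relative values, and FPKM carry no depth. The median log2 difference over all genes tested was -0.66, and over the 11 rows it was -0.21, or -0.18 without MTFP1.

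**Figure D1:**
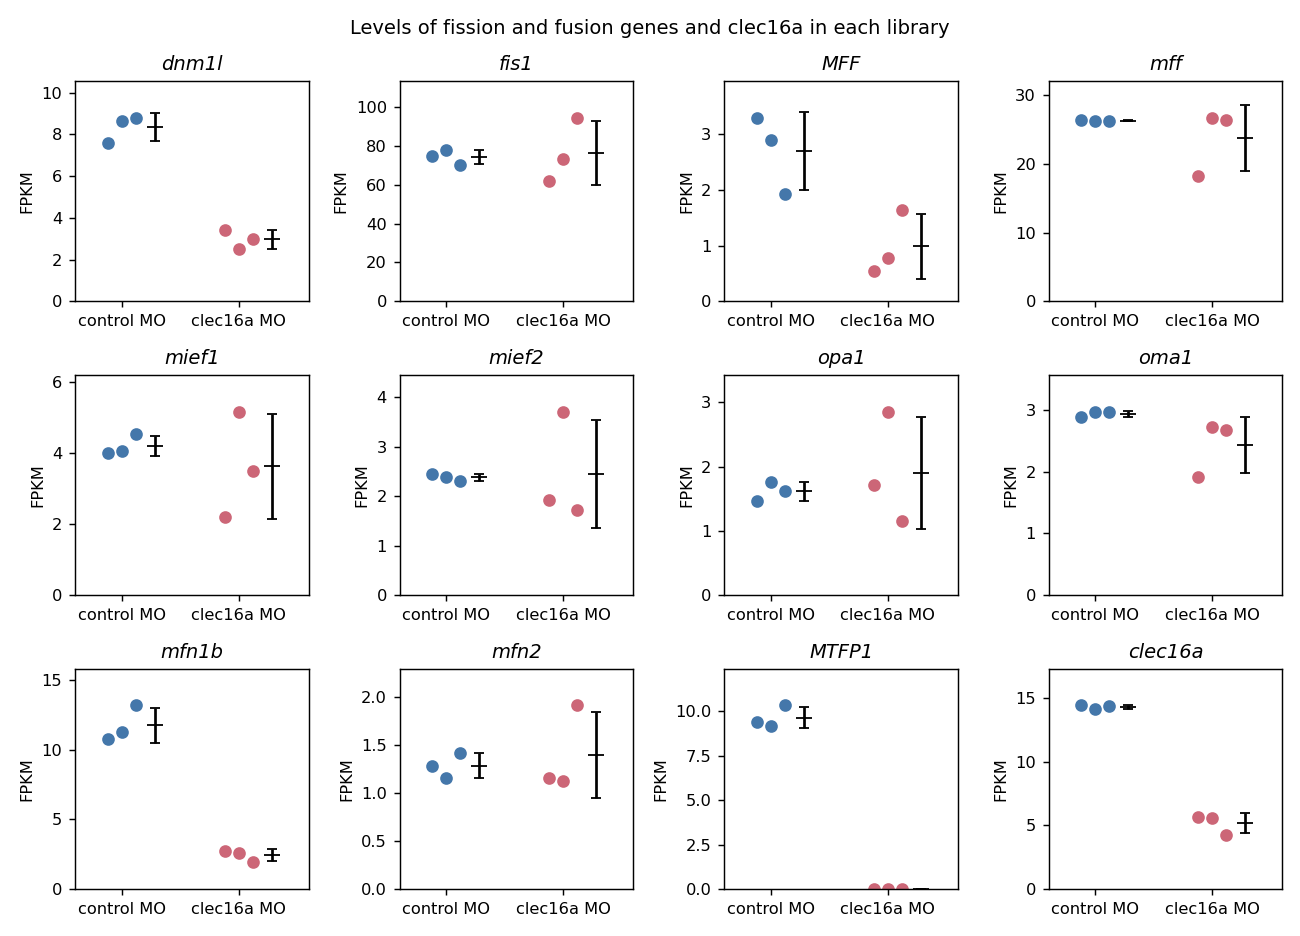
FPKM (vertical axes, each starting at 0) of the 11 rows of fission and fusion genes and of clec16a in the 3 control MO libraries (blue) and the 3 clec16a MO libraries (red); the bar beside each group is the mean and SD. The groups are apart for mfn1b, dnm1l, MTFP1, MFF, oma1 and clec16a, and overlap for the rest.

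The libraries differed far beyond these genes, and the values that touch every result below are these. clec16a itself averaged 14.3 ± 0.144 FPKM (SD, n = 3) with control MO and 5.16 ± 0.798 FPKM in the libraries with clec16a MO. Its log2 difference of -1.32 lay at percentile 33.5 of the differences of all genes tested, and was -0.63 with median centring. The summed FPKM of the endothelial markers was 2658 to 2763 in the control MO and 605 to 731 in the clec16a MO libraries, with 9 of 9 rows lower and erg listed at 0 in each clec16a MO library. In that list etv2, the highest with clec16a MO, averaged 476 FPKM with control MO and 366 FPKM with clec16a MO. For fli1a these means were 1049 and 107 FPKM, and for tek 157 and 0.333 FPKM. The erythroid sum was 652 to 738 and 7406 to 10681 FPKM (9 of 9 rows higher), the neutrophil sum 39.9 to 43.5 and 794 to 1201 FPKM (5 of 5 rows higher), and the macrophage sum 4.22 to 5.10 and 2129 to 3035 FPKM (8 of 14 rows higher), with 10 rows, mpeg1.1 among them, at 0 in each control MO library. Rows named mfap4 or MFAP4 made up most of the macrophage sum with clec16a MO, the highest averaging 1050, 968 and 313 FPKM. There mpeg1.1 averaged 12.6 and coro1a 21.5 FPKM, and marco and csf1ra, at 0.034 and 0.063 FPKM, were not tested. The skeletal muscle sum was 2947 to 2961 and 21.6 to 33.1 FPKM (8 of 8 rows lower), and the epidermal sum 1006 to 1028 and 93.1 to 100.7 FPKM (6 of 6 rows lower). The sum of thrombocyte and HSPC genes was 116 to 123 and 24.8 to 32.8 FPKM, with 3 of 5 rows lower. In that list gfi1aa made up 90.6 FPKM of the control MO sum on average, runx1 was at 0 in every clec16a MO library, itga2b was listed at 0 in each control MO library, and myb, at 11.5 ± 0.277 and 14.8 ± 4.19 FPKM (SD, n = 3), was not called. The neural sum was 22.3 to 23.8 and 1.69 to 2.98 FPKM, with 2 of 5 rows lower and the other 3 below the filter. The sum of neural crest and arch genes was 4.28 to 4.75 and 1.04 to 3.68 FPKM, with 1 of 4 rows lower and the other 3 below the filter; of these, sox10 was at 0 in every clec16a MO library and prrx1b in each control MO library. In these bulk samples fewer or more cells of a type and less or more RNA per cell cannot be told apart. Whether the same kinds of cells were collected in both groups was not tested. The part of these cell types in the values of the fission and fusion genes was not tested either. Rows above 0 numbered 19250 to 19317 in the control MO and 15153 to 15871 in the clec16a MO libraries.

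Of the mitofusin genes, mfn1b fell and mfn2 was not called. mfn1b, whose product tethers and fuses outer membranes, read 10.8, 11.3 and 13.2 FPKM in the control MO libraries and 2.73, 2.59 and 1.93 FPKM in the libraries with clec16a MO. Every clec16a MO library lay below every control MO library, as for 56.1% of all genes tested, and the mean was 4.86-fold lower. On the deposited scale this fall lay at percentile 20.0 of the differences of all genes tested. The log2 difference was -1.90 (SE 0.15, limma adjusted p = 1.5e-05, Benjamini-Hochberg). It was -1.21 with each library centred on its median (limma adjusted p = 0.00016), and under quantile normalization it was -1.26 (limma adjusted p = 7.1e-05), so the direction and the call held while the size depended on the scaling.

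mfn2, the other mitofusin and in mammals also a tether between mitochondria and the endoplasmic reticulum, read 1.28, 1.16 and 1.41 FPKM in the control MO libraries and 1.15, 1.12 and 1.91 FPKM in the libraries with clec16a MO. The groups overlapped, and the third clec16a MO library was the highest of all 6. The log2 difference was 0.06 with a 95% interval from -0.31 to 0.42 (limma adjusted p = 0.74, Benjamini-Hochberg). mfn2 was called higher with median centring (0.75, limma adjusted p = 0.0030), as it was under quantile normalization (1.06, limma adjusted p = 0.00031).

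Within a library, the ratio of mfn1b to mfn2 is unaltered by any factor that multiplies the whole library. FPKM are per length, so levels of different genes were set side by side here and below. That comparison is approximate, since the RNA was copied from its poly(A) end and the evenness of coverage was not tested. mfn1b stood 8.44, 9.79 and 9.34 times as high as mfn2 in the control MO libraries and 2.37, 2.30 and 1.01 times as high in the clec16a MO libraries. The ratios did not overlap between the groups, and the share of other gene pairs without overlap was not taken. On the deposited scale the log2 differences were -1.90 for mfn1b and 0.06 for mfn2, so the ratio mostly restates the fall of mfn1b. The difference in the mean log2 ratio was -2.38 (two-sided exact permutation test, p = 0.1, the lowest value that 3 against 3 libraries allow; 0.17 after Benjamini-Hochberg adjustment over the 5 ratios compared). Without the third clec16a MO library, where both genes read 1.9 FPKM, the difference was -1.97.

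The GTPase of division fell while its adaptors were not called, apart from the MFF row. dnm1l read 7.59, 8.66 and 8.80 FPKM in the control MO libraries and 3.41, 2.50 and 3.002 FPKM in the libraries with clec16a MO. The groups were apart, with a mean 2.81-fold lower in the clec16a MO libraries. The log2 difference was -1.24 (SE 0.14, limma adjusted p = 1.0e-04, Benjamini-Hochberg). It was -0.55 with median centring (limma adjusted p = 0.0063), and under quantile normalization -0.54 (limma adjusted p = 0.0058). On the deposited scale this fall lay at percentile 35.4 of the differences of all genes tested, so 35.4% of them had a difference as low or lower.

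fis1, a small tail-anchored adaptor of the outer membrane, had the highest level of the 11 rows in both groups. It read 74.8, 77.7 and 70.3 FPKM in the control MO libraries and 61.9, 73.1 and 94.4 FPKM in the libraries with clec16a MO. The clec16a MO libraries spread on both sides of the control MO libraries. The log2 difference was 0.02 with a 95% interval from -0.35 to 0.39 (limma adjusted p = 0.90, Benjamini-Hochberg). It was called higher with median centring (0.71, limma adjusted p = 0.0045) while quantile normalization gave -0.14 (limma adjusted p = 0.40).

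mff, the main adaptor for Dnm1l in mammalian cells, was the second highest. Its lower-case row read 26.4, 26.2 and 26.2 FPKM in the control MO libraries and 18.2, 26.7 and 26.4 FPKM in the libraries with clec16a MO. The groups overlapped, with the first clec16a MO library alone below the control MO range. The log2 difference was -0.16 with a 95% interval from -0.53 to 0.21 (limma adjusted p = 0.37, Benjamini-Hochberg), and 0.53 with median centring, where it was called higher (limma adjusted p = 0.019).

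The MFF row read 3.30, 2.89 and 1.93 FPKM in the control MO libraries and 0.536, 0.770 and 1.65 FPKM in the libraries with clec16a MO. The groups did not overlap, but the lowest control MO and the highest clec16a MO library were close. The log2 difference was -0.92 (SE 0.24, limma adjusted p = 0.0092, Benjamini-Hochberg), and the row was no longer called under median centring (-0.23, limma adjusted p = 0.41) or under quantile normalization (0.066, limma adjusted p = 0.81). The division of reads between the rows of this name is not known, which leaves their separate values uncertain. With the rows summed, the log2 difference was -0.24 and was not called (limma adjusted p = 0.20, Benjamini-Hochberg).

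Set against dnm1l within each library, the lower-case mff row and fis1 stood higher in the clec16a MO libraries. No ratio to dnm1l was taken for mief1, mief2 or the MFF row. The mean of the MFF row was 2.75-fold lower with clec16a MO, and that of dnm1l 2.81-fold lower. mff was 3.49, 3.03 and 2.98 times as high as dnm1l in the control MO libraries and 5.34, 10.7 and 8.81 times as high in the clec16a MO libraries. For fis1 and dnm1l these ratios were 9.85, 8.98 and 7.99 in the control MO libraries and 18.2, 29.2 and 31.5 in the clec16a MO libraries. Neither ratio overlapped between the groups. Among single genes tested 83.7% did not overlap, and the share for other pairs of genes was not taken. On the deposited scale the log2 differences were -0.16 for mff, 0.02 for fis1 and -1.24 for dnm1l. On that scale these ratios mostly restate the fall of dnm1l. With median centring the differences were 0.53 for mff, 0.71 for fis1 and -0.55 for dnm1l. With quantile normalization they were -0.02, -0.14 and -0.54, so the share of each gene in the ratios depends on the scaling. The differences in mean log2 ratio were 1.33 for mff and 1.52 for fis1 (two-sided exact permutation test, p = 0.1 for each, the lowest value possible; 0.17 adjusted over the 5 ratios).

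**Figure D2:**
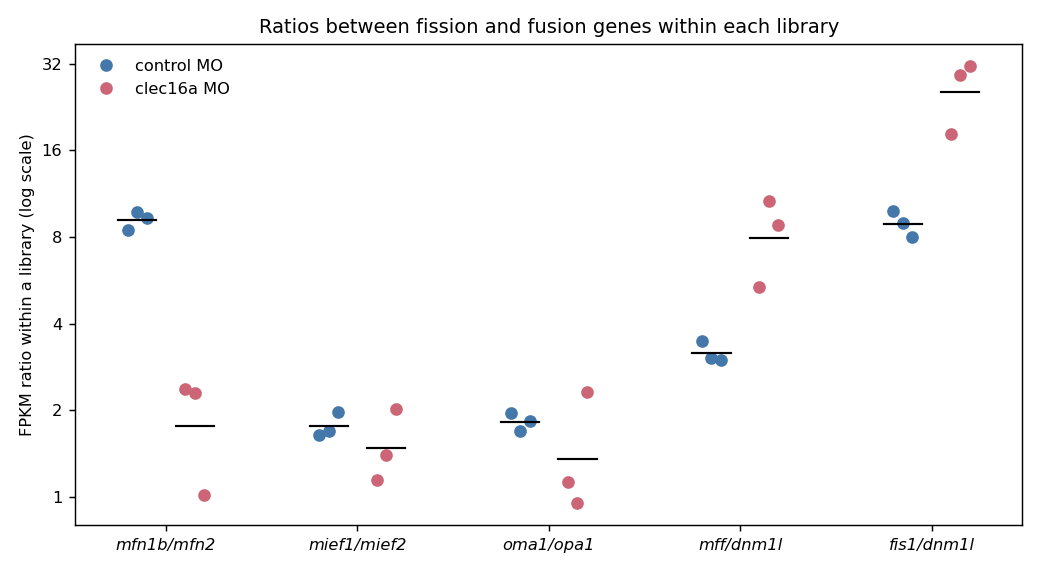
FPKM ratio of one gene to another within each library (vertical axis, log scale) for 5 pairs of fission and fusion genes in the control MO (blue) and clec16a MO (red) libraries; black lines are the means on the log scale. The ratio mfn1b/mfn2 is lower and mff/dnm1l and fis1/dnm1l are higher in every clec16a MO library than in any control MO library, while mief1/mief2 and oma1/opa1 overlap.

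The paralogous adaptor genes mief1 and mief2 (MiD51 and MiD49 in mammals), whose products can recruit Dnm1l independently of Mff, were low and variable. mief1 read 4.01, 4.06 and 4.53 FPKM in the control MO libraries and 2.21, 5.17 and 3.49 FPKM in the libraries with clec16a MO. mief2 read 2.44, 2.40 and 2.30 FPKM in the control MO libraries and 1.93, 3.71 and 1.72 FPKM in the libraries with clec16a MO. For both genes the second clec16a MO library was the highest of all 6 and the others lay below the control MO libraries. The log2 differences were -0.22 for mief1 (95% interval -0.78 to 0.34, limma adjusted p = 0.41, Benjamini-Hochberg) and -0.01 for mief2 (95% interval -0.53 to 0.50, limma adjusted p = 0.96). Without the second clec16a MO library mief1 was called lower (-0.45, limma adjusted p = 0.047, Benjamini-Hochberg), and mief2 was at -0.26 (limma adjusted p = 0.062). Without the first, mief1 was at 0.019 (limma adjusted p = 0.92) and mief2 at 0.083 (limma adjusted p = 0.75). With quantile normalization both were called higher, mief1 at 0.57 (limma adjusted p = 0.040) and mief2 at 0.91 (limma adjusted p = 0.0039). The ratio of mief1 to mief2 ranged from 1.64 to 1.97 in the control MO and from 1.15 to 2.03 in the clec16a MO libraries, with a difference in mean log2 ratio of -0.25 (exact permutation p = 0.5, two-sided). It was -0.068 without the first and -0.48 without the third clec16a MO library.

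MTFP1, the inner membrane division gene, read 9.41, 9.20 and 10.3 FPKM in the control MO libraries and was listed at 0 in all 3 clec16a MO libraries. No fold is given, because a 0 in this table can be a failed estimate. MTFP1 was called lower (limma adjusted p = 3.7e-07, Benjamini-Hochberg), and it stayed called under every alternative run that kept it among the genes tested. Those runs used the same values of 0, so their calls cannot show whether these values are failed estimates. The row passed the filter only through the control MO libraries and could only be called lower. Of the genes tested, 290 (2.39%) were likewise above 0 in each control MO library and at 0 in each clec16a MO library. The 3 rows whose log2(FPKM + 1) over the 6 libraries was most like that of MTFP1 were utp18, a second row of si:ch211-113a14.19, and CABZ01090373.1, with Pearson's r of at least 0.99999 for each; all 3 were at 0 in each clec16a MO library. With 2 groups this far apart such a likeness is common: 2375 of the 12153 rows tested had r above 0.99 with MTFP1.

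The inner membrane fusion gene opa1 and its protease gene oma1 were not called. opa1 read 1.47, 1.77 and 1.62 FPKM in the control MO libraries and 1.71, 2.86 and 1.15 FPKM in the libraries with clec16a MO. The clec16a MO libraries lay inside, above and below the control MO range, and the log2 difference was 0.11 (95% interval -0.40 to 0.62, limma adjusted p = 0.65, Benjamini-Hochberg). oma1 read 2.89, 2.98 and 2.97 FPKM in the control MO libraries and 1.92, 2.72 and 2.68 FPKM in the libraries with clec16a MO. All clec16a MO values of oma1 lay below the control MO values, yet its log2 difference of -0.21 was not called (95% interval -0.53 to 0.12, limma adjusted p = 0.20, Benjamini-Hochberg). With median centring both were called higher, opa1 at 0.80 (limma adjusted p = 0.012) and oma1 at 0.49 (limma adjusted p = 0.017). The ratio of oma1 to opa1 was 1.69 to 1.96 in the control MO and 0.952 to 2.32 in the clec16a MO libraries, which overlap (difference in mean log2 ratio -0.43, exact permutation p = 0.4, two-sided). It was -0.18 without the second and -0.82 without the third clec16a MO library.

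The 7 rows that were not called had log2 differences in a narrow band, from -0.22 for mief1 to 0.11 for opa1, between percentiles 60.5 and 67.2 of all genes tested. They stood on the upper side of the median gene, which was lower in the clec16a MO libraries. Rows that are not called tend to lie near 0, so this place follows at least in part from how the 7 rows were picked. Rescaling moved the median of all genes by 0.69 with median centring and 0.62 with quantile normalization. The sign of mff turned with median centring, that of fis1 with quantile normalization and those of mief1, mief2 and oma1 with both, while opa1 and mfn2 were above 0 under all 3 scalings. With median centring, 6 of the 11 rows were called higher (mff, fis1, mief2, opa1, oma1 and mfn2) and 3 lower (MTFP1, mfn1b and dnm1l), where 77.8% of the genes tested were called, 39.7% higher and 38.1% lower. With quantile normalization, 5 were called higher (mief1, mief2, opa1, oma1 and mfn2) and the same 3 lower, where 77.8% of the genes tested were called, 38% higher and 39.8% lower. MTFP1, mfn1b and dnm1l were called lower under all 3 scalings.

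**Figure D3:**
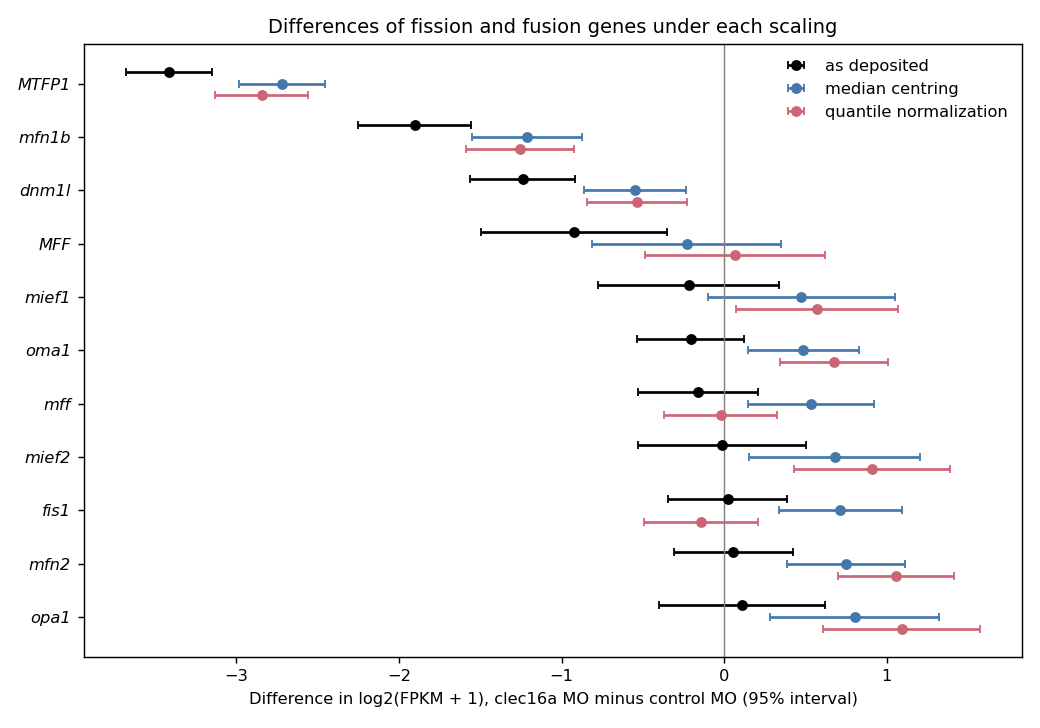
Difference in log2(FPKM + 1), clec16a MO minus control MO, with its 95% interval (horizontal axis) for the 11 rows, on the deposited values (black), with median centring (blue) and with quantile normalization (red). MTFP1, mfn1b and dnm1l lie below 0 under each scaling; the size for MTFP1, which is at 0 in each clec16a MO library, depends on the pseudocount.

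**Figure D4:**
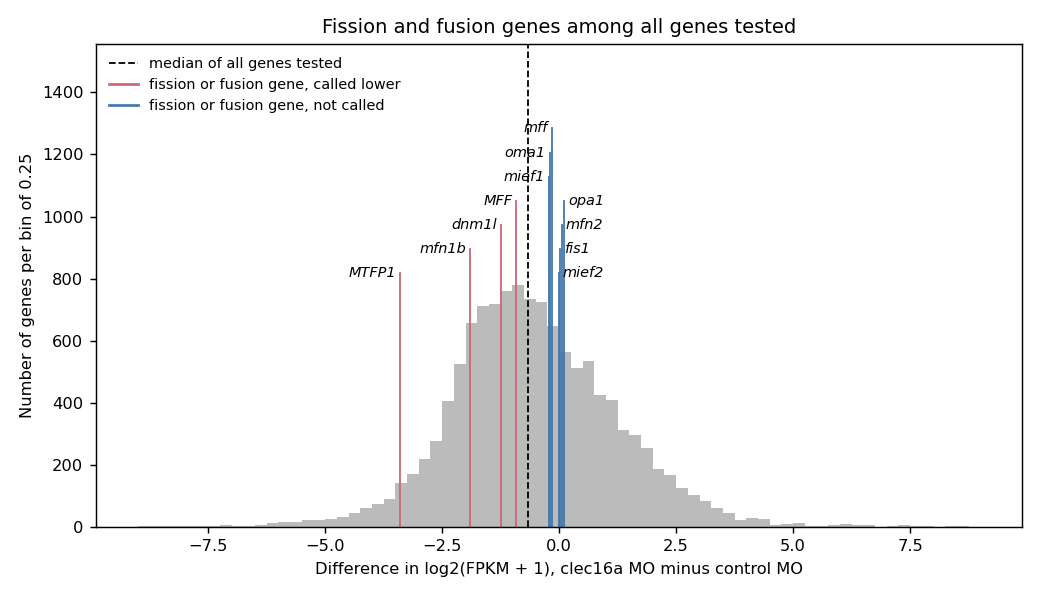
Number of genes (vertical axis) by difference in log2(FPKM + 1), clec16a MO minus control MO (horizontal axis, bins of 0.25), for the 12153 genes tested (grey), with the 11 rows of fission and fusion genes as vertical lines (red: called lower; blue: not called; line heights only separate the names). The 7 rows not called lie above the dashed median of -0.66, near 0, where rows that are not called tend to lie. The bins stop short of the largest differences, so genes such as AL935186.7 at -11.6 and CABZ01080042.1 at 9.11 are not drawn.

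Seen by whether the groups overlap, 5 of the 11 rows (45.5%), mfn1b, dnm1l, MTFP1, MFF and oma1, had all clec16a MO libraries below all control MO libraries and none had them above. Among all genes tested the groups did not overlap for 83.7%, 27.6% with the clec16a MO libraries above and 56.1% below, and overlapped for 16.3%. The control MO libraries lay closer together than the clec16a MO libraries. The SD of log2(FPKM + 1) was larger in the clec16a MO libraries for 10 of the 11 rows, the exception being MTFP1, and for 86.7% of all genes tested. Its median over the 11 rows was 0.08 in the control MO and 0.30 in the clec16a MO libraries. Of the 7 rows not called, 5 (mff, mief1, mief2, opa1 and oma1) were highest among the clec16a MO libraries in the second and 2 (fis1 and mfn2) in the third.

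The order of the levels changed below the first 2 places. In the control MO libraries it ran fis1, mff, mfn1b, MTFP1, dnm1l, mief1, oma1, MFF, mief2, opa1 and mfn2, and neighbours overlapped only at oma1 with MFF and MFF with mief2. In the clec16a MO libraries fis1 and mff still led without overlapping each other or the next. Below them came mief1, dnm1l, mief2, oma1, mfn1b, opa1, mfn2 and MFF, each overlapping its neighbour within the spread of 3 libraries, and MTFP1 at 0. Ranked within each library among all genes tested, which no scaling of a library alters, mfn1b went from percentiles 59.9 to 64.4 in the control MO to 34.5 to 40.6 in the clec16a MO libraries, and dnm1l from 50.5 to 54.2 to 39.7 to 45.0. mfn2 went from percentiles 6.35 to 7.94 to 25.6 to 34.3 and opa1 from 8.67 to 11.3 to 25.5 to 42.3, while fis1 stayed between 88.7 and 92.2 in all 6 libraries. The mean FPKM of mfn2 was 1.28 with control MO and 1.40 with clec16a MO, and that of opa1 1.62 and 1.91. A rank also moves when other genes move. The median FPKM of the genes tested was 7.42 to 7.58 in the control MO and 4.17 to 4.34 in the clec16a MO libraries. These ranks are a description, with no test, and a higher rank does not show a rise of the gene's own level.

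Genes that work with this machinery moved in both directions, and the shares called in the 4 lists are to be read against the 81.3% of all genes tested that were called (26.7% higher, 54.6% lower) and their median of -0.66. Among other genes tied to division, 12 of 15 rows in the table were tested; 2 rose, 8 fell and 2 were not called, so that 83.3% were called, near the share of all genes, with a median log2 difference of -1.03. dnm2b, a dynamin, read 10.9, 10.3 and 13.2 FPKM in the control MO libraries and was listed at 0 in all 3 clec16a MO libraries. spire1a, an actin nucleator, went from 4.52, 4.25 and 5.01 FPKM to 0.108, 0 and 0 FPKM. march5l, related to the mammalian ubiquitin ligase MARCH5 of the outer membrane, fell from 24.5 ± 1.24 to 10.8 ± 1.65 FPKM (SD, n = 3), and the deubiquitinase gene usp30 from 2.95 ± 0.142 to 0.730 ± 0.299 FPKM. These 4 genes had adjusted p-values of at most 0.00024 (limma, Benjamini-Hochberg).

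Among genes of fusion and of Opa1 processing, 11 of 13 rows were tested; 3 rose, 4 fell and 4 were not called (63.6% called, against 81.3% of all genes tested), with a median of -0.48. The prohibitin gene phb2b, whose mammalian counterpart keeps Opa1 stable, rose from 16.9 ± 0.368 to 62.8 ± 4.65 FPKM (SD, n = 3). Its duplicate phb2a fell from 4.48 ± 0.429 to 2.39 ± 0.645 FPKM, and was not called with median centring or quantile normalization. miga1, a mitoguardin of the outer membrane that promotes fusion in mammalian cells, rose from 3.40 ± 0.474 to 11.4 ± 1.53 FPKM. yme1l1b, which encodes an inner membrane protease that cleaves Opa1, fell from 5.10 ± 0.272 to 0.670 ± 0.714 FPKM. stoml2, which encodes a cardiolipin-binding scaffold, fell from 10.1 ± 0.596 to 5.92 ± 0.834 FPKM, and its log2 difference was 0.01 with median centring (limma adjusted p = 0.96, Benjamini-Hochberg). On the deposited scale phb2b, miga1, yme1l1b and stoml2 had adjusted p-values of at most 0.0019 (limma, Benjamini-Hochberg). Those of phb2a and yme1l1a were 0.0071 and 0.032 (limma, Benjamini-Hochberg). Without the second clec16a MO library 7 genes of this list fell, and 6936 of all genes tested were called lower, against 6638 with all 6 libraries. The row MFN1, which is not among the members and was looked at after its values were seen, was below the filter, at 0 in 5 libraries and 0.0716 FPKM in the third control MO library.

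Of 15 rows of cristae organization genes 14 were tested, of which 6 rose, 5 fell and 3 were not called (78.6% called, near the 81.3% of all genes tested), with a median of 0.02. The MICOS genes chchd6a, apooa and apoob rose, from 9.46 ± 0.420 to 28.1 ± 2.49, from 29.2 ± 1.99 to 89.2 ± 11.2 and from 21.3 ± 0.390 to 48.2 ± 3.21 FPKM (SD, n = 3). chchd6b, the duplicate of chchd6a with the higher control MO level, fell from 80.8 ± 1.88 to 18.9 ± 8.33 FPKM. samm50, whose product inserts proteins into the outer membrane and binds MICOS, fell from 19.1 ± 0.965 to 9.33 ± 0.326 FPKM. Of 9 tested rows of mitochondrial transport genes, 2 rose, 6 fell and 1 was not called (88.9% called, against the same 81.3%), with a median of -1.04. The kinesin gene kif5ba had 2 rows, whose separate values are uncertain, that fell from 42.6 ± 1.81 to 7.18 ± 0.789 and from 5.15 ± 1.04 to 1.66 ± 0.196 FPKM. The motor adaptor gene trak2 read 5.77, 4.48 and 5.50 FPKM in the control MO libraries and was listed at 0 in all 3 clec16a MO libraries, and rhot2, a Miro GTPase of the outer membrane, fell from 3.11 ± 0.117 to 0.805 ± 0.377 FPKM. The named genes of these lists had adjusted p-values of at most 0.00033 (limma, Benjamini-Hochberg). With quantile normalization usp30 (-0.22, limma adjusted p = 0.20, Benjamini-Hochberg), rhot2 (-0.23, limma adjusted p = 0.21), stoml2 (-0.11, limma adjusted p = 0.44) and the lower kif5ba row (-0.36, limma adjusted p = 0.070) were no longer called. The other named genes, apart from phb2a, were called in the same direction under each scaling. With median centring the counts of higher and lower genes became 3 and 5 for division, 5 and 1 for fusion and Opa1 processing, 8 and 3 for cristae and 2 and 4 for transport. Of all genes tested, 39.7% were then called higher and 38.1% lower.

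**Figure D5:**
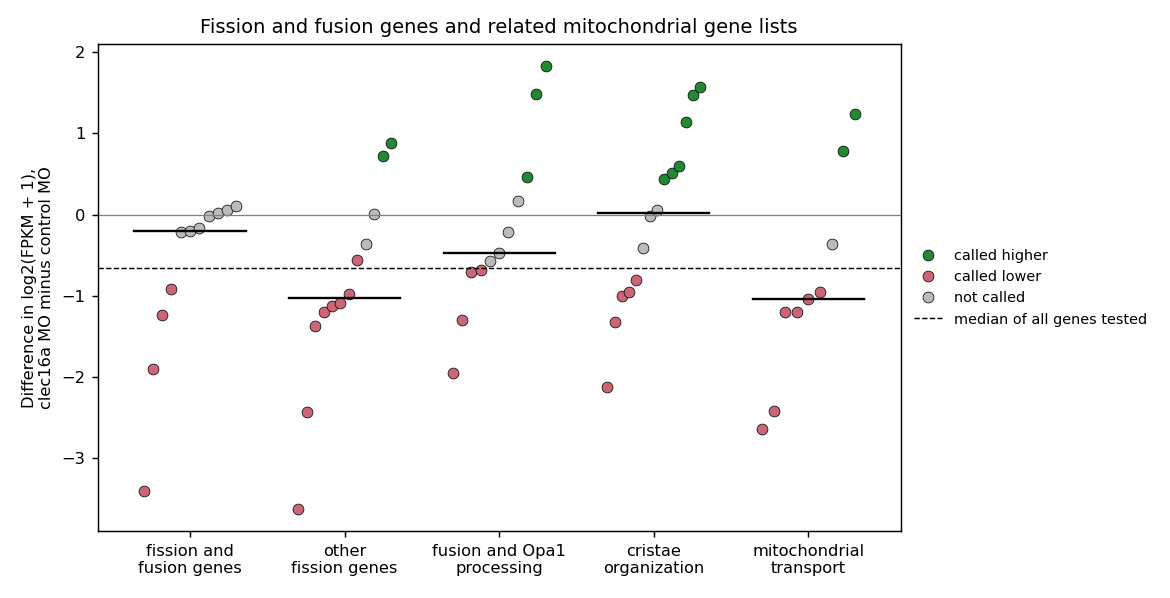
Difference in log2(FPKM + 1), clec16a MO minus control MO (vertical axis), of each tested row of the fission and fusion genes and of 4 related lists; green points were called higher, red lower and grey not called, and black bars are medians. On the deposited scale shown, the 11 rows hold no green point (6 and 5 with median centring and quantile normalization), and the related lists hold both green and red points.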

How the data were processed

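Per the labels' protocols, total RNA was copied from its poly(A) end with template switching, and the amplified, sheared cDNA was read from both ends. The values the authors deposited are FPKM, fragments scaled by transcript length and mapped fragments; per the submitters' processing notes the tools include Cutadapt 1.9, HISAT2 2.2.1 and StringTie 2.1.6, and the build is not given in the sources used here. FPKM carry no totals, so the depth is unknown; a search of values below 1 FPKM for ratios shared between libraries (within 0.08%) found 36 to 54 genes at the commonest ratio in pairs of control MO libraries, against a median of 13 genes per ratio, and 16 to 20 against 7 to 8 in pairs of clec16a MO libraries. These were few of the genes compared in each pair, so relative depths were not derived. Of 21853 rows, 16 named by a date were left out.

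Rows with a mean of at least 1 FPKM were tested as log2(FPKM + 1), which understates changes of low genes, with limma 3.58.1 (R 4.3.3), a mean-variance trend and group as the only term, two-sided. The test was run on simulated data with the same spread in both groups and few changed genes. These libraries differ on both points, so that run does not check the calls made here. Ratios used an exact permutation test (SciPy 1.17.1); figures used matplotlib 3.10.9. The labels do not state separate clutches for the replicates; if there were none, each p-value reflects the spread among these libraries alone and that spread may be technical. The labels name no batch, and any batch aligned with group cannot be told apart from it. The members, lists and tests were chosen with earlier results of these data known. Named were the 10 genes, clec16a, up to 4 genes per related list with the smallest adjusted p, and the 3 rows most like the called member with the largest fall. The duplicates of chchd6a, phb2b and yme1l1b were added after the values were seen. No member was called higher on the deposited scale. Alternatives changed the pseudocount, filter, scaling, trend, weights, replicate block, summing of rows and libraries included.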

Additional observations from a re-analysis of the deposited data

How the results depend on the processing

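The 11 rows of fission and fusion genes gave 4 calls, 0 higher and 4 lower, and 4 to 5 calls, 0 higher, when each library was left out in turn. Median centring gave 9 calls (6 higher, 3 lower), quantile normalization 8 (5 higher), and a minimum of 5 FPKM 2, both lower, since that filter tests fewer genes. Of the members it tested dnm1l, fis1, the lower-case mff row and mfn1b alone. Summing rows of one name gave 3 calls, 0 higher, with the MFF row then part of mff. Over all genes, the minimum of 5 FPKM gave 6004 calls, 3472 of them lower, no filter gave 10430 lower, and leaving out libraries gave 8867 to 10340 calls; the main counts were 9877 and 6638 lower. Median centring turned the log2 difference to 0.53 for mff, 0.47 for mief1, 0.68 for mief2 and 0.49 for oma1, raised fis1 to 0.71, opa1 to 0.80 and mfn2 to 0.75, which were then called, and left MFF at -0.23, not called. Quantile normalization turned MFF to 0.066, fis1 to -0.14, mief1 to 0.57, mief2 to 0.91 and oma1 to 0.68, and called opa1 at 1.09 and mfn2 at 1.06. Leaving out libraries gave -0.14 to 0.16 for fis1, -0.25 to 0.014 for mff, -0.45 to 0.019 for mief1, -0.26 to 0.14 for mief2, -0.12 to 0.31 for opa1 and -0.091 to 0.14 for mfn2. Over all alternatives the limma adjusted p (Benjamini-Hochberg) stayed at or below 0.0063 for dnm1l, 0.00027 for mfn1b and 1.4e-05 for MTFP1. For MTFP1 these runs all used the same values of 0 in the clec16a MO libraries, so they add no support for its fall. The 5 ratios kept their sign under each alternative run for them, but leaving out libraries gave -0.48 to -0.068 for mief1/mief2 and -0.82 to -0.18 for oma1/opa1, whose groups overlap. In the related lists, the minimum of 5 FPKM gave 4 lower division genes, 1 lower fusion gene, and 0 higher and 2 lower transport genes; median centring gave 5 lower division, 5 higher and 1 lower fusion and 3 lower cristae genes; quantile normalization gave 5 lower division, 1 lower fusion and 3 lower transport genes; and leaving out libraries gave 4 to 7 lower fusion genes. The minimum of 5 FPKM tests fewer rows in each list, and their number is not given here. Its counts are thus not to be read as lost calls. Median centring called 39.7% of all genes tested higher and 38.1% lower, and quantile normalization 38% and 39.8%. The cause of the changes between settings was not tested. With a replicate block on the title numbers 4 of the 11 rows and 9843 genes were called. Same-numbered libraries had correlations of deviations of 0.044, -0.018 and 0.005. These show no shared effect of the numbers, but cannot exclude that samples were collected in pairs. The unknown depth leaves the counting error of every value unknown.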

Other observations

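Zebrafish carry many mitochondrial genes as a pair of duplicates, named with a and b. In 8 such pairs of the related lists both genes were tested, and in 5 of them the duplicates were called in opposite directions; the pattern was looked at after the values were seen, and no test of it was made. Among all 974 pairs of names with a and b, 15.9% were called in opposite directions, and with median centring the counts were 2 of 8 and 19.7%, with quantile normalization 3 of 8 and 20.4%. The ratio of chchd6a to chchd6b, which encode MICOS subunits, was 0.114, 0.126 and 0.112 in the control MO and 1.09, 2.34 and 1.57 in the clec16a MO libraries. The ratio of the protease genes yme1l1a and yme1l1b was 0.571, 0.423 and 0.558 in the control MO and 3.05, 32.9 and 8.44 in the clec16a MO libraries. The ratio of the Miro GTPase genes rhot1a and rhot1b was 21.4, 30.1 and 22.3 in the control MO and 3.62, 1.39 and 4.06 in the clec16a MO libraries. chchd3a with chchd3b and phb2a with phb2b were the others, and none of the 5 ratios overlapped between the groups. These pairs were picked for opposite calls, which makes such a shift likely beforehand, so the ratios add no support. Of the pairs called in the same direction, the ratio of apooa to apoob did not overlap either, while that of sh3glb1a to sh3glb1b did. A ratio within a library is unaltered by a factor that multiplies the whole library, but how reads were divided between duplicates is not given in the sources used here.

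immt, the core MICOS gene, was not in the list of cristae genes under this name and was looked at after its values were seen. It read 22.3, 21.5 and 23.8 FPKM in the control MO libraries and 3.66, 2.50 and 3.34 FPKM in the libraries with clec16a MO.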
